A study of Homo sapiens with 6 samples.

Results

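Counts were examined for 10 genes whose products remove poly(A) tails, remove caps and digest messenger RNA once a microRNA has silenced it: CNOT1, CNOT6, CNOT7, CNOT8, PAN3, DDX6, EIF4ENIF1, EDC4, XRN1 and DCP2. They were chosen by symbol, and each of the 10 had 1 row among the 16199 genes of the count table. The table holds RNA recovered with an antibody against Ago2, the Argonaute protein that carries a microRNA to its target. The method was iCLIP, in which ultraviolet light fixes proteins to the RNA they touch before the protein is pulled down. The cells were H1, a long-used human embryonic stem cell line, with 2 libraries for each of 3 genotypes of Dicer, the enzyme that cuts microRNA precursors.

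Homozygous cells carried the S1344L substitution of Dicer on both alleles, hemizygous cells carried it as what the protocol writes as pm/fs, and wild-type cells carried neither change. Cells of every genotype had grown for 10 days in medium depleted of doxycycline and were irradiated 2 times with 150 mJ/cm2 of 254 nm light. How many clones were used is not stated, nor is whether both libraries of 1 genotype were grown apart. The p-values therefore reflect only how far these libraries scatter, which may be technical. The IgG pull-downs that the protocol mentions were not analysed here. In this table a change in Ago2 contact and a change in the amount of a transcript cannot be told apart, nor can fewer cells of a type and less RNA per cell.

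The route these genes serve is well known. An Argonaute with its microRNA binds a TNRC6 protein, which draws in 2 deadenylase complexes, PAN2-PAN3 and CCR4-NOT, and these shorten the poly(A) tail of the target. The helicase DDX6 docks on the scaffold CNOT1, holds back translation and links the complex to decapping factors. DCP2 then removes the cap and XRN1 digests the uncapped body from its 5′ end. In mouse and human embryonic stem cells, CCR4-NOT scaffold subunits are known to be needed for the undifferentiated state. The values below are counts on the transcripts of these factors, not amounts of the proteins.

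Libraries held 38.2 M to 52.9 M counts. The lowest count of any of the 10 genes in a library was 1279, for EIF4ENIF1, where counting error alone was 2.80%. That figure covers counting error only. All 12 pluripotency markers examined were above 1 CPM (counts scaled to library size, with TMM factors) in every library. Their summed level was 10132 and 9551 CPM in homozygous, 10444 and 9896 CPM in hemizygous, and 9156 and 8893 CPM in wild-type libraries. Of 8 mesendoderm markers 1 had a row, MIXL1, at 1.23 to 3.07 CPM. DICER1 stood at 118 to 129 CPM in homozygous, 96.4 to 118 CPM in hemizygous and 126 to 169 CPM in wild-type libraries. Its log2 fold change against wild-type was -0.46 (SE 0.19, interval -0.91 to -0.012) in hemizygous and -0.26 (SE 0.19) in homozygous cells. The hemizygous difference had an unadjusted p of 0.0456 by edgeR and was not called after adjustment. Of all genes 0.87% had an unadjusted p under 0.05 there, and 9.21% were lower without overlap, as DICER1 was. Counts of a gene that carries a substitution do not check its genotype. AGO2 stood at 199 to 268 CPM in homozygous, 231 to 277 CPM in hemizygous and 218 to 222 CPM in wild-type libraries. Row lengths were not given, so the levels of the 10 genes are compared for 1 gene across libraries and not between genes. Sums over markers, and shares or ratios of rows, have no correction for length.

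None of the 10 genes passed the test in any comparison of genotypes, and their log2 fold changes lay between -0.29 and 0.22. CNOT7, PAN3 and DCP2 stood higher in both hemizygous than in both wild-type libraries. Over all genes 8.13% were higher and 9.21% lower without overlap in that comparison. CNOT1, XRN1, CNOT6 and CNOT8 differed more between the 2 libraries of each genotype than between the means of the genotypes. EIF4ENIF1 was nearly level throughout, between 32.8 and 34.8 CPM.

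**Figure D1:**
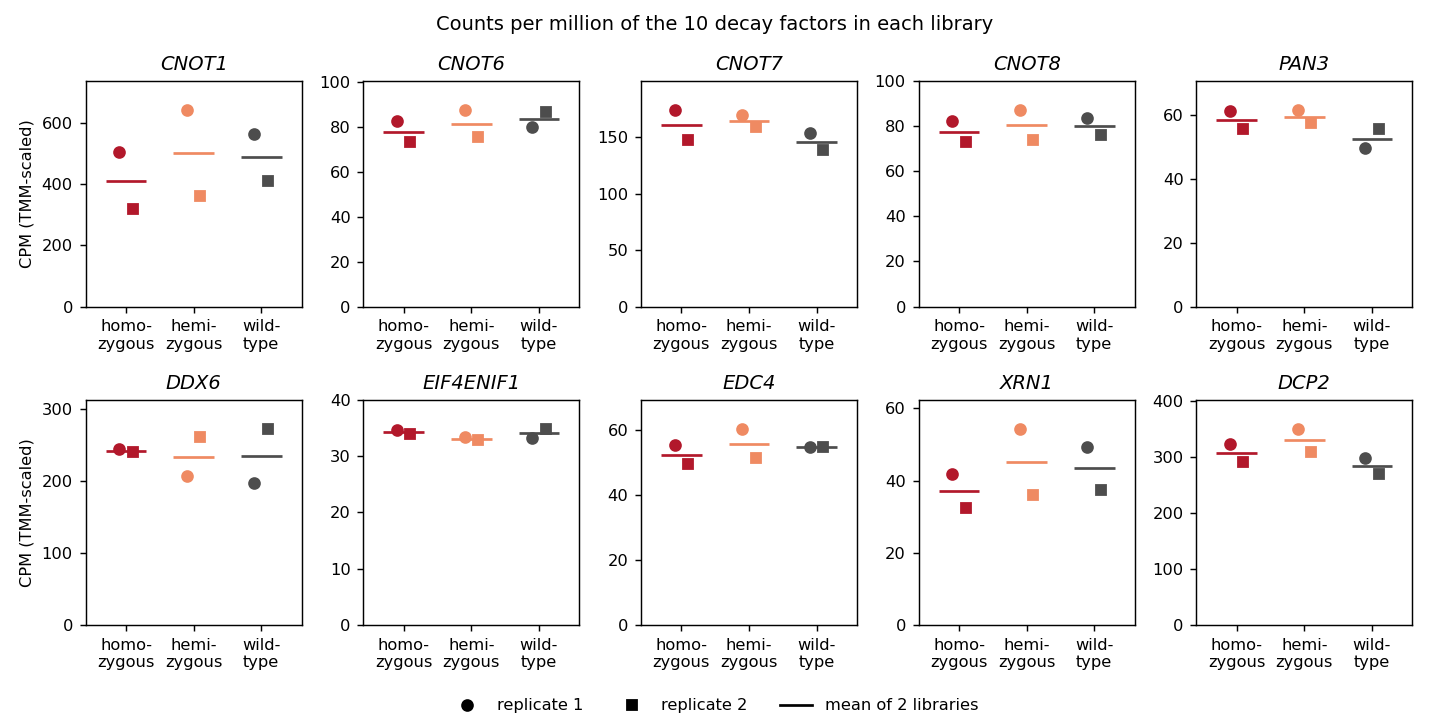
Level of each of the 10 genes in CPM, on an axis from 0, in homozygous, hemizygous and wild-type libraries. Circles are replicate 1, squares replicate 2 and bars the mean of the 2 libraries. CNOT1 spans 319 to 640 CPM with the circle above the square in each genotype, while EIF4ENIF1 stays between 32.8 and 34.8 CPM.

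CNOT1 is the scaffold on which the CCR4-NOT complex is built and the surface that TNRC6 and DDX6 bind. Its gene lies on chromosome 16 at 58519951 to 58629826 (RefSeq, GRCh38.p14). It was counted at 503 and 319 CPM in homozygous libraries, 640 and 362 CPM in hemizygous libraries, and 565 and 409 CPM in wild-type libraries (replicates 1 and 2). The replicate 1 library was the higher in each genotype, and the genotypes overlapped fully. The log2 fold change was -0.24 (SE 0.33) in homozygous and 0.04 (SE 0.33) in hemizygous against wild-type cells, neither called by edgeR's quasi-likelihood test. The 95% interval of the homozygous difference ran from -1.04 to 0.56, a lower limit of 0.485-fold. SETD6, which overlaps CNOT1, stayed at 29.5 to 31.7 CPM in the 6 libraries, and its count was 4.66% to 9.57% of that of CNOT1. Reads of the 2 genes, and of 2 snoRNAs inside CNOT1 (SNORA46 and SNORA50A) that had no row, may be mixed, since the use of strand is not given in the sources used here.

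CNOT7 and CNOT8 are alternative nuclease subunits that bind the same site of CNOT1, and CNOT6 is the second kind of nuclease in the complex. CNOT7 (chromosome 8, 17224966 to 17246857) was at 174 and 148 CPM in homozygous, 170 and 159 CPM in hemizygous, and 154 and 138 CPM in wild-type libraries. Both hemizygous libraries lay above both of wild-type, and homozygous replicate 2 lay inside the wild-type range. The log2 fold change was 0.17 (SE 0.14, interval -0.17 to 0.51) in hemizygous and 0.14 (SE 0.14, interval -0.20 to 0.48) in homozygous cells.

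CNOT8 (chromosome 5, 154858249 to 154876792) was at 82.1 and 73.2 CPM in homozygous, 87.0 and 73.7 CPM in hemizygous, and 83.9 and 76.2 CPM in wild-type libraries. All 3 ranges overlapped, and the replicate 1 library was again the higher in each. CNOT6 (chromosome 5, 180494379 to 180578358) was at 82.8 and 73.2 CPM in homozygous, 87.5 and 75.7 CPM in hemizygous, and 80.2 and 86.8 CPM in wild-type libraries. Here wild-type replicate 2 was the higher of its pair, unlike in the mutants. The log2 fold changes of CNOT8 and CNOT6 against wild-type lay between -0.098 and 0.0051 in both mutant genotypes.

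PAN3 is the adaptor that brings the PAN2 nuclease to the poly(A) tail. Its gene (chromosome 13, 28138193 to 28295335) was counted at 61.1 and 55.5 CPM in homozygous, 61.3 and 57.3 CPM in hemizygous, and 49.4 and 55.5 CPM in wild-type libraries. Both hemizygous libraries exceeded both wild-type libraries, by little in replicate 2, and homozygous replicate 2 was level with wild-type replicate 2. The log2 fold change was 0.18 (SE 0.13, interval -0.14 to 0.50) in hemizygous and 0.15 (SE 0.13, interval -0.17 to 0.47) in homozygous cells. The overlapping antisense row PAN3-AS1 held 1.26% to 1.89% of the count of PAN3. Loci that had no row also overlap PAN3 (EEF1A1P3, RNU6-82P and LOC124903140), XRN1 (RNU6-1294P and RNU1-100P), EIF4ENIF1 (RNU6-28P) and CNOT6 (LOC100329129). Their part in the counts of these genes is not known.

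DDX6 is the DEAD-box helicase that couples CCR4-NOT to translational repression. Its gene (chromosome 11, 118747763 to 118791744) was counted at 244 and 240 CPM in homozygous, 207 and 261 CPM in hemizygous, and 197 and 272 CPM in wild-type libraries. Replicate 2 was the higher in hemizygous and wild-type cells, opposite to CNOT1, and the homozygous pair fell between these extremes. EIF4ENIF1, also called 4E-T, binds DDX6 and the cap-binding protein eIF4E. It lies on chromosome 22 at 31436963 to 31493568 and was counted at 34.6 and 33.9 CPM in homozygous, 33.3 and 32.8 CPM in hemizygous, and 33.3 and 34.8 CPM in wild-type libraries. The whole span was 1.06-fold, and 0.302% of all genes had a smaller range on the log2 scale. The log2 intervals against wild-type were -0.47 to 0.47 for DDX6 and -0.33 to 0.25 for EIF4ENIF1 in hemizygous cells.

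EDC4 is the scaffold that stimulates decapping, and DCP2 is the enzyme that removes the cap. EDC4 (chromosome 16, 67873052 to 67884499) was at 55.3 and 49.6 CPM in homozygous, 60.4 and 51.4 CPM in hemizygous, and 54.8 and 54.9 CPM in wild-type libraries. The wild-type pair was level and lay within the range of each mutant genotype. DCP2 (chromosome 5, 112976798 to 113022195) was at 324 and 292 CPM in homozygous, 350 and 309 CPM in hemizygous, and 297 and 270 CPM in wild-type libraries. Both hemizygous libraries lay above both of wild-type, while homozygous replicate 2 lay within the wild-type range.

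DCP2 had the highest fold change of the 10 genes in hemizygous against wild-type cells, with a mean of 330 ± 29.0 against 284 ± 19.7 CPM (SD, n = 2 each). That is a log2 fold change of 0.22 (SE 0.14), or 1.16-fold with an interval of 0.924-fold to 1.46-fold (unadjusted p = 0.162 and adjusted p = 1.00 by edgeR). In homozygous cells the mean was 308 ± 23.0 CPM and the log2 fold change 0.12 (SE 0.14). MCC overlaps DCP2 and held 12.2% to 18.1% of its count, and it ran from 35.6 to 62.8 CPM, so part of the count of DCP2 may be shared.

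XRN1 is the nuclease that digests decapped RNA from the 5′ end. Its gene (chromosome 3, 142306610 to 142448037) was counted at 41.8 and 32.3 CPM in homozygous, 54.3 and 36.0 CPM in hemizygous, and 49.4 and 37.4 CPM in wild-type libraries. The replicate 1 library was the higher in each genotype, as for CNOT1, and the genotypes overlapped. The log2 fold change was -0.23 (SE 0.25, interval -0.83 to 0.37) in homozygous and 0.06 (SE 0.25, interval -0.54 to 0.65) in hemizygous cells against wild-type.

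Across the table, edgeR called 0 genes (0%) in hemizygous against wild-type cells at an adjusted p under 0.05, with 141 genes (0.87%) at an unadjusted p under 0.05, and 0 of the 10 members reached either. Their median log2 fold change was 0.03, with 7 above 0, against -0.0026 over all genes. DESeq2 called 7 genes and limma-voom 0, with no member among them. The libraries did not overlap for 3 members, all higher (CNOT7, PAN3 and DCP2), and for 0 members lower. Over all genes 8.13% were higher and 9.21% lower in this way. The same 3 genes, and no other member, were higher in hemizygous than in wild-type cells at both replicate numbers, where 26.7% of all genes were higher and 28.5% lower at both.

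In homozygous against wild-type cells edgeR again called 0 genes (0%) and 0 members, with 435 genes (2.69%) and 0 members at an unadjusted p under 0.05. DESeq2 called 10 genes, none a member, and limma-voom 0. The median of the members was -0.0165, with 5 above 0, against -0.0034 over all genes. For none of the 10 did the libraries of the genotypes separate, where 14.2% of all genes were higher and 13.6% lower without overlap. Between libraries of the same replicate number, CNOT7 was higher by 0.17 and 0.09 and DCP2 by 0.12 and 0.11 on the log2 scale (replicates 1 and 2). CNOT1 differed by -0.17 and -0.36, XRN1 by -0.24 and -0.21 and CNOT8 by -0.03 and -0.06. That makes 2 members higher and 3 lower at both numbers, beside 27% of all genes higher and 28.7% lower. PAN3 differed by 0.31 between the replicate 1 libraries and by under 0.01 between the replicate 2 libraries. Both mutant genotypes were set against the same 2 wild-type libraries, so these comparisons are not independent of each other.

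**Figure D2:**
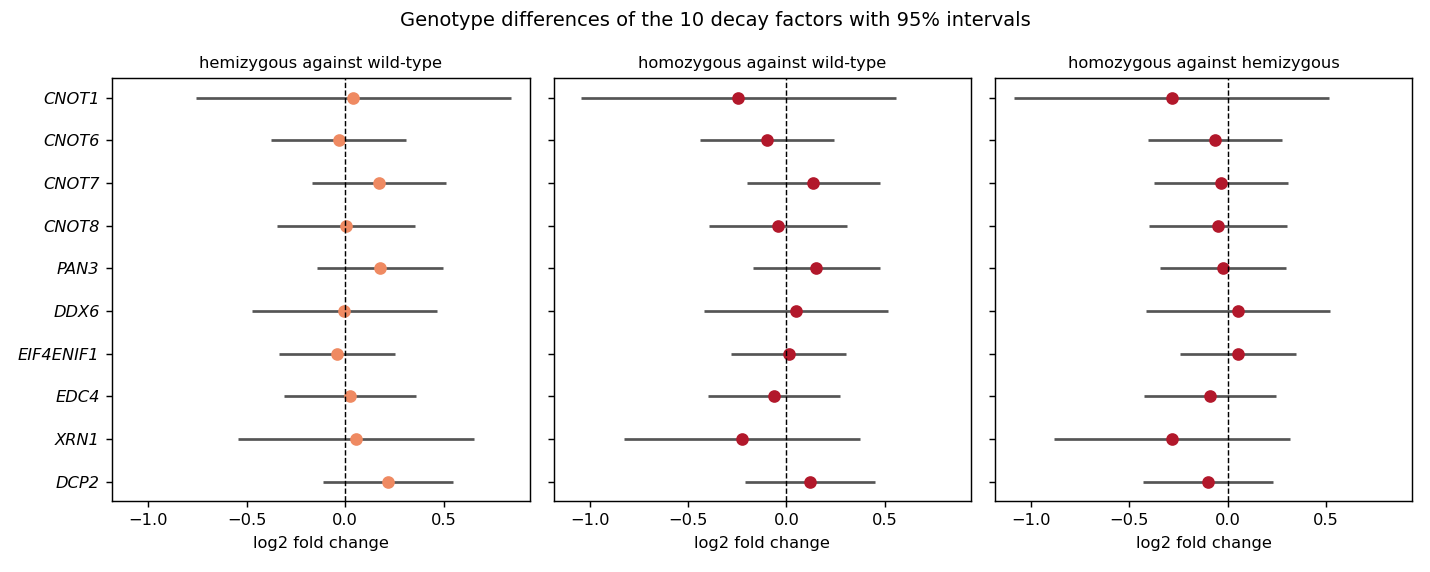
Log2 fold change of each gene (points) with its 95% interval from edgeR's fit (lines) in 3 panels, which set hemizygous cells against wild-type ones and then homozygous cells against each of the others. Every interval crosses 0, and those of CNOT1 and XRN1 are the widest.

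Homozygous and hemizygous cells were then compared directly. The members' median log2 fold change was -0.06, with 8 of 10 below 0, against -0.00035 over all genes. The lowest values were -0.29 (SE 0.33) for CNOT1 and -0.28 (SE 0.25) for XRN1. At both replicate numbers 7 members were lower and 1, EIF4ENIF1, was higher, beside 30.2% of all genes lower and 27.3% higher. EIF4ENIF1 was also the 1 member whose libraries did not overlap, at 34.6 and 33.9 against 33.3 and 32.8 CPM, and 0 members were lower without overlap. Of all genes 11% were higher and 10.4% lower without overlap. edgeR called 0 genes (0%), with 124 genes (0.765%) and 0 members at an unadjusted p under 0.05, while DESeq2 called 10 genes, none a member, and limma-voom 0. The interval for DCP2 ran from -0.43 to 0.23 and that for CNOT7 from -0.37 to 0.31, so the mutant genotypes were not shown to be alike for these genes.

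For several members the gap between the 2 libraries of a genotype was larger than the spread of the genotype means. CNOT1 was higher in replicate 1 than in replicate 2 by 0.66 in homozygous, 0.82 in hemizygous and 0.47 in wild-type cells on the log2 scale, a mean of 1.57-fold. Those gaps exceeded the signed gap of 97.5%, 95.9% and 89.3% of all genes. XRN1 had gaps of 0.37, 0.59 and 0.40, a mean of 1.37-fold. For both genes the mean of a genotype moved by 0.27 between its highest and lowest genotype, less than the gap within any of them. CNOT8 had smaller gaps (0.17 in homozygous, 0.24 in hemizygous, 0.14 in wild-type cells), but its genotype means spanned only 0.05. CNOT6 had gaps of 0.18, 0.21 and -0.11 in the same order, each larger in size than the 0.10 its genotype means spanned.

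DDX6 ran the other way in 2 genotypes, with gaps of 0.02 in homozygous, -0.33 in hemizygous and -0.47 in wild-type cells. Replicate 1 was the higher in all 3 genotypes for 5 members, CNOT1, CNOT7, CNOT8, XRN1 and DCP2, as for 29.9% of all genes, and the lower in all 3 for 0 members, as for 28.3% of all genes. In homozygous cells all 10 members were higher in replicate 1, in hemizygous cells 9, with DDX6 the exception, and in wild-type cells 5. Over all 16199 genes the numbers were 8271 in homozygous, 7994 in hemizygous and 8226 in wild-type cells. Across the 6 libraries, which share these 2 replicate numbers, log2 CPM of CNOT1 followed that of CNOT8 (Pearson r = 0.989) and XRN1 (r = 0.984). XRN1 ran against DDX6 (r = -0.792). These are the 2 highest and the lowest r of all pairs of members, and others lay near 0, as for PAN3 and XRN1 (r = 0.0456).

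**Figure D3:**
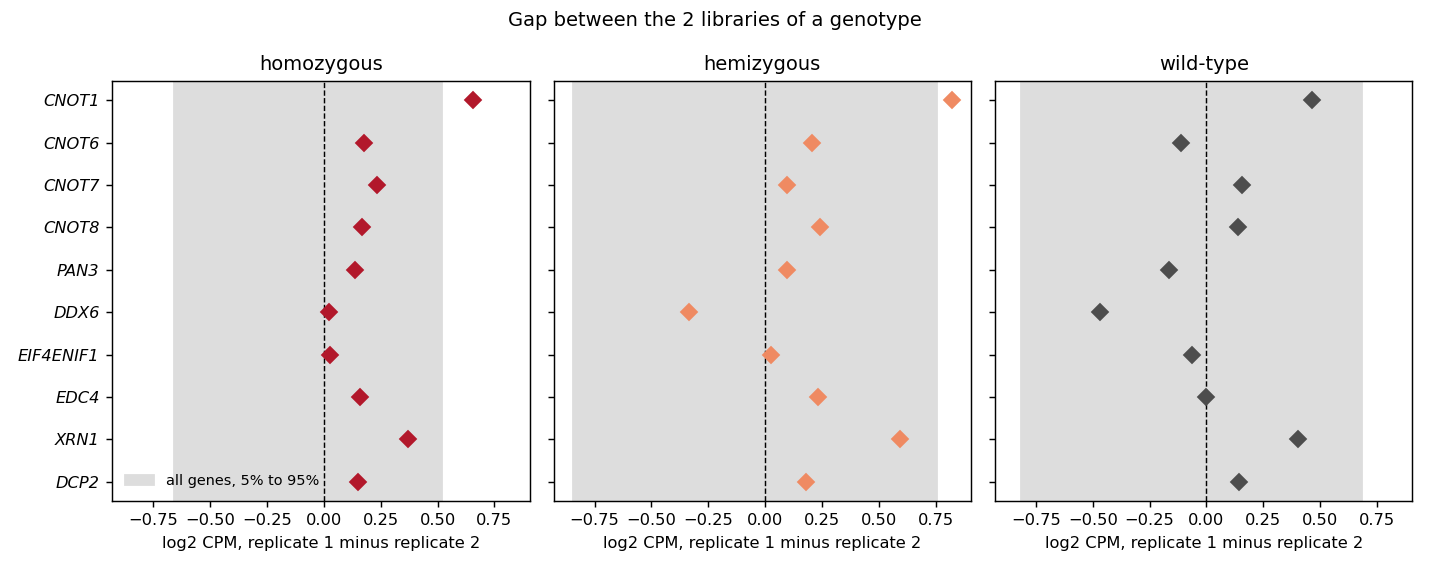
Log2 CPM of replicate 1 minus replicate 2 for each gene (diamonds) in homozygous, hemizygous and wild-type cells. Grey bands hold the middle 90% of all genes. CNOT1 lies beyond the band in homozygous (0.66) and hemizygous (0.82) cells, and DDX6 lies below 0 in hemizygous (-0.33) and wild-type (-0.47) cells.

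Markers of other cells were read beside this gap. Of 10 fibroblast and stromal markers 7 had a row. Their summed level was 647 and 693 CPM in homozygous, 865 and 724 CPM in hemizygous and 896 and 806 CPM in wild-type libraries, and 0 of the 7 were at 0. The sum was higher in replicate 1 in hemizygous and wild-type cells and lower in homozygous cells, and its genes did not move as one. The collagen COL1A1 was higher in replicate 1 in each genotype (190 and 179 CPM in homozygous, 324 and 213 CPM in hemizygous, 285 and 184 CPM in wild-type libraries). COL1A2, FBN1 and POSTN were likewise higher in replicate 1 in each genotype. FBN1 stood at 7.51 and 7.24 CPM in homozygous, 21.9 and 8.03 CPM in hemizygous, and 16.9 and 6.91 CPM in wild-type libraries. COL6A3 and PDGFRB were higher in replicate 1 in hemizygous and wild-type cells and lower in homozygous cells. THY1, a surface protein, was the only measured gene of the list higher in replicate 2 in each genotype (333 and 394 CPM in homozygous, 334 and 379 CPM in hemizygous, 420 and 468 CPM in wild-type libraries). Of 8 neuroectoderm markers 6 had a row, with 0 of them at 0 and no row for PAX6 or SOX1. Their sum was higher in replicate 1 in each genotype, at 439 and 428 CPM in homozygous, 589 and 490 CPM in hemizygous, and 517 and 470 CPM in wild-type libraries. Most of it was NES, an intermediate filament protein. ZIC1 stood at 28.2 and 28.0 CPM in homozygous, 41.0 and 58.9 CPM in hemizygous, and 17.9 and 16.3 CPM in wild-type libraries. The 3 genotypes did not overlap for ZIC1 or DCX, both on that list. DCX stood at 4.01 and 4.65, 5.58 and 5.58, and 3.28 and 3.30 CPM in the same order. FABP7 was higher in every mutant library than in both wild-type libraries. NES (386 and 371 against 472 and 429 CPM), MAP2 and OTX2 were lower in both homozygous than in both wild-type libraries. Over all genes 8.13% were higher without overlap in hemizygous against wild-type cells. In homozygous against wild-type cells 14.2% were higher and 13.6% lower in this way. How many of all genes separated the 3 genotypes was not counted. The part of these markers in the levels of CNOT1 and XRN1 was not tested.

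By likeness over the 6 libraries, the rows closest to CNOT1, the member with the widest range (2.01-fold from lowest to highest library), were TNFRSF10D (Pearson r = 0.999, 9.85 to 16.1 CPM), CLTC, the clathrin heavy chain (r = 0.999, 399 to 717 CPM), and TANGO6 (r = 0.998, 14.0 to 25.6 CPM). Of 9792 named rows with a mean of at least 10 CPM, 1731 reached r = 0.9 with CNOT1, so its pattern is shared by many. The rows closest to the mean of the 10 members were UBE4B (r = 0.998), BRWD3 (r = 0.995) and SLC44A1 (r = 0.995), with 769 rows at r = 0.9 or more.

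Ratios of 2 rows within a library do not depend on scaling between libraries, and 4 pairs of partners or paralogs were examined in the 3 comparisons. The count of CNOT7 over that of its paralog CNOT8 was 2.12 and 2.02 in homozygous libraries, 1.95 and 2.16 in hemizygous libraries, and 1.84 and 1.82 in wild-type libraries. Each mutant library lay above both wild-type libraries. The log2 ratio was higher by 0.18 in homozygous and by 0.17 in hemizygous cells, with SDs of 0.0477, 0.103 and 0.0125 (n = 2 each) in homozygous, hemizygous and wild-type libraries. By exact permutation (two-sided) p was 0.333 for each, the smallest that 2 libraries against 2 allow, and 1 after adjustment over the 12 tests.

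DCP2 over DCP1A, its activating partner, was 9.43 and 10.6 in homozygous, 8.09 and 10.0 in hemizygous, and 8.48 and 9.35 in wild-type libraries. Homozygous libraries lay just above those of wild-type, by 0.17 on the log2 scale (exact permutation p = 0.333, adjusted p = 1), and hemizygous libraries enclosed them. PAN3 over PAN2 was 0.902 and 0.622 in homozygous, 1.06 and 0.709 in hemizygous, and 0.813 and 0.780 in wild-type libraries. CNOT6 over its paralog CNOT6L was 1.71 and 1.93 in homozygous, 1.46 and 1.80 in hemizygous, and 1.47 and 1.95 in wild-type libraries. The ranges of both pairs overlapped in every comparison.

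**Figure D4:**
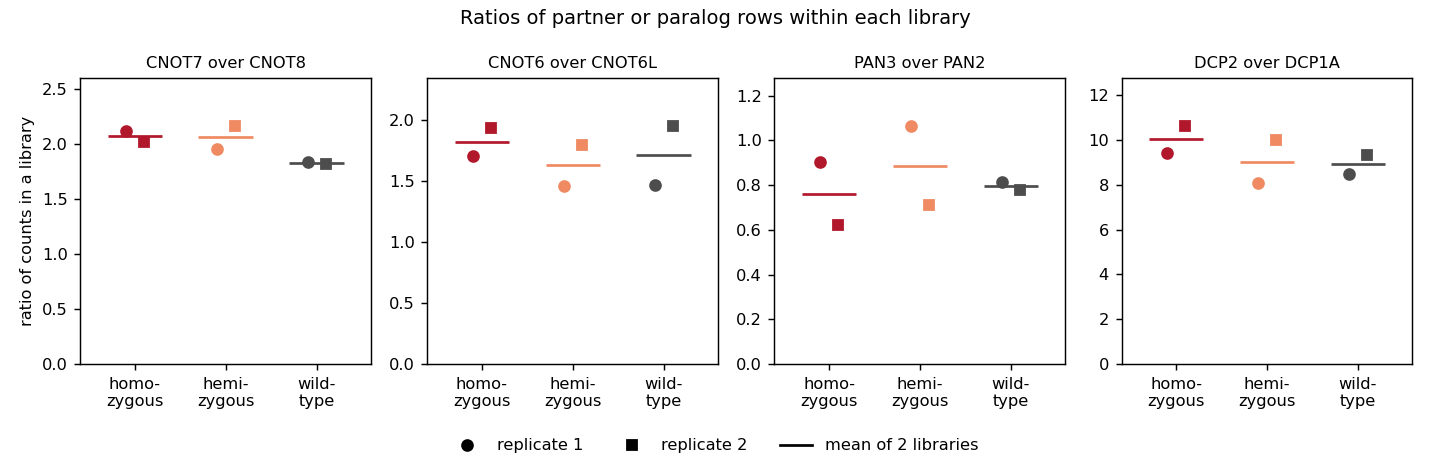
Ratio of the counts of 2 genes within each library, on axes from 0, in homozygous, hemizygous and wild-type libraries. Circles are replicate 1, squares replicate 2 and bars the mean of 2 libraries. For CNOT7 over CNOT8 the mutant libraries lie between 1.95 and 2.16 and the wild-type libraries at 1.84 and 1.82.

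Among 73 other genes of RNA deadenylation, decapping and decay, 66 had a row. No gene of this list was called by edgeR in any comparison. In hemizygous against wild-type cells 32 were above 0 and 34 below, with a median log2 fold change of -0.0056, and 5 were higher and 6 lower without overlap, beside 8.13% and 9.21% of all genes. In homozygous against wild-type cells 29 were above and 37 below 0, with a median of -0.01, and 12 were higher and 7 lower without overlap, beside 14.2% and 13.6% of all genes. In homozygous against hemizygous cells 32 were above and 34 below 0 (median -0.0086), with 9 higher and 6 lower without overlap, beside 11% and 10.4% of all genes. By role, the list held 22 measured CCR4-NOT subunits and recruiters, 9 other genes of deadenylation and tails, 7 repression partners, 12 decapping and 5′ decay genes and 16 genes of 3′ decay. In hemizygous against wild-type cells 7 CCR4-NOT genes, 2 tail genes, 5 repression partners, 10 decapping genes and 10 genes of 3′ decay were below 0, as were 8240 of all 16199 genes. In homozygous against wild-type cells 17 CCR4-NOT genes, 3 tail genes, 4 repression partners, 6 decapping genes and 7 genes of 3′ decay were below 0, as were 8217 of all genes. In homozygous against hemizygous cells 17 CCR4-NOT genes, 5 tail genes, 2 repression partners, 4 decapping genes and 6 genes of 3′ decay were below 0, as were 8117 of all genes. None of the roles was tested as a set.

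The lowest p of the list was that of a gene that recruits CCR4-NOT. ZFP36L1, a zinc finger protein that binds AU-rich elements and draws in CCR4-NOT, was at 184 and 196 CPM in homozygous, 205 and 221 CPM in hemizygous, and 225 and 266 CPM in wild-type libraries. The 3 genotypes did not overlap, and how many of all genes did likewise was not counted. Its log2 fold change was -0.37 (SE 0.14) in homozygous against wild-type cells, with an unadjusted p of 0.0342 and an adjusted p of 1.00 by edgeR, and -0.21 (SE 0.14) in hemizygous cells. It was the 1 gene of the 66 measured on the list with an unadjusted p under 0.05 in any of the 3 comparisons. Over all genes 2.69% reached that in homozygous against wild-type cells.

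TOB1 and BTG2, both adaptors that bind the CNOT7 and CNOT8 nucleases, stood lower in both homozygous than in both hemizygous libraries. TOB1 stood at 21.3 and 22.0 against 27.8 and 25.4 CPM (log2 fold change -0.30, SE 0.16), and at 28.1 and 22.6 CPM in wild-type libraries (log2 fold change against wild-type -0.23, SE 0.16). BTG2 stood at 7.53 and 10.8 CPM in homozygous, 13.3 and 11.8 CPM in hemizygous, and 11.3 and 8.14 CPM in wild-type libraries. Its log2 fold change was -0.45 (SE 0.25) in homozygous against hemizygous and 0.37 (SE 0.25) in hemizygous against wild-type cells. None of these differences passed edgeR's test over all genes.

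CNOT11, a CCR4-NOT subunit, stood at 85.7 and 78.4 CPM in homozygous and 84.4 and 76.3 CPM in hemizygous libraries, against 71.5 and 70.2 CPM in wild-type libraries. In homozygous cells it differed by 0.21 on the log2 scale (SE 0.13). NANOS1, an RNA-binding protein that recruits CCR4-NOT, was near 2 CPM in hemizygous libraries (2.24 and 1.80 CPM) against 1.60 and 1.41 CPM in wild-type libraries (log2 fold change 0.42, SE 0.27). GIGYF1, which works with the cap-binding repressor EIF4E2, stood at 263 and 261 CPM in homozygous libraries against 154 and 234 CPM in wild-type libraries (log2 fold change 0.43, SE 0.23). Its hemizygous libraries were at 191 and 257 CPM, so replicate 2 was the higher in hemizygous and wild-type cells but not in homozygous cells. Without wild-type replicate 1 the homozygous difference was 0.17, and without wild-type replicate 2 it was 0.78. EXOSC4, an exosome subunit, was at 12.2 and 14.3 CPM in hemizygous libraries against 14.2 and 16.9 CPM in wild-type libraries (log2 fold change -0.23, SE 0.17).

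The widest difference of the list between the mutant genotypes was that of LSM14A, a partner of DDX6 in translational repression. Its homozygous libraries stood at 7.89 and 25.3 CPM, against 8.84 and 8.43 CPM in hemizygous libraries and 15.5 and 8.67 CPM in wild-type libraries. The log2 fold change of 0.94 (SE 0.53) came from homozygous replicate 2, and was -0.13 without that library. LSM14B, its paralog, stood at 118 and 114 CPM in homozygous libraries against 87.7 and 108 CPM in hemizygous libraries (log2 fold change 0.24, SE 0.16).

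**Figure D5:**
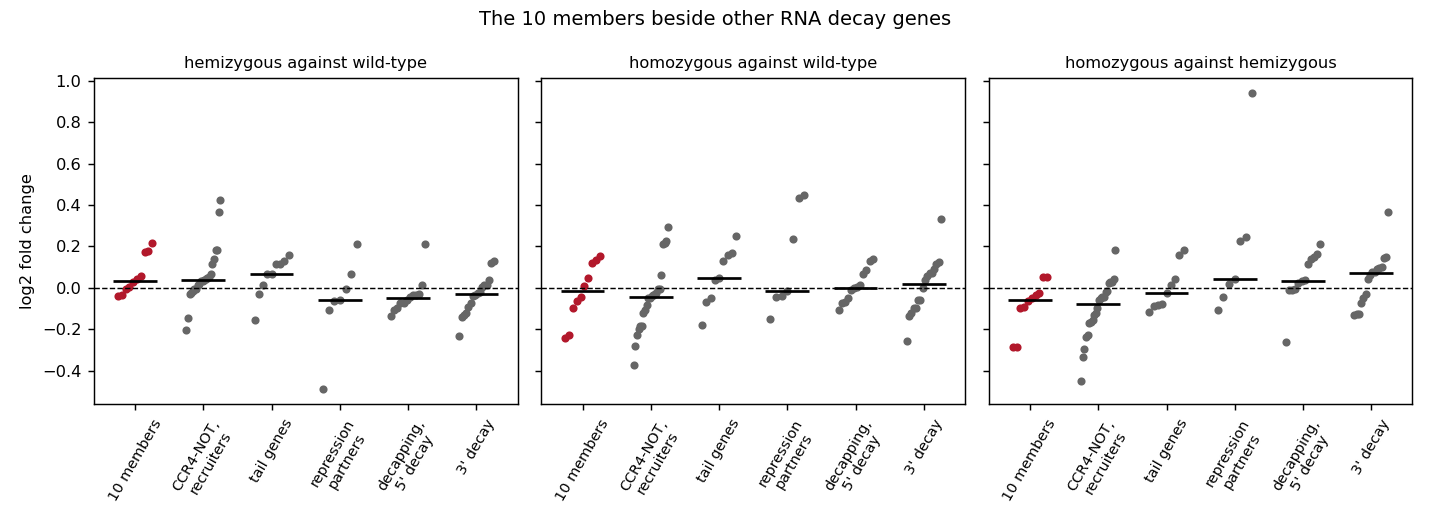
Log2 fold change of the 10 members (red) and of 66 other RNA decay genes (grey) by role, in 3 panels with the same comparisons as the plot of intervals. Each point is a gene and each bar the median of its group. LSM14A stands highest in the last comparison, at 0.94.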

How the data were processed

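The authors deposited whole-number read counts per gene for 6 Ago2 iCLIP libraries, with no normalization in the values. The build is hg38, per the submitters' processing notes. Not given in the sources used here: aligner, counter, annotation, strand and whether molecular identifiers were collapsed. The lowest row total was 132. Each column name matched a sample's description.

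All 16199 rows passed filterByExpr and were tested by edgeR 4.0.16 (R 4.3.3) with TMM scaling and its quasi-likelihood test, with a mean for each of 3 genotypes. Benjamini-Hochberg adjustment ran over all genes. A standard error is the fold change (log2) over the root of F. Log2 CPM used a prior count of 2. DESeq2 1.42.0 and limma 3.58.1 (voom), other scalings, filters of none or 20 counts in 2 libraries, a replicate block and leaving out libraries in turn were alternatives.

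Named from the list of 73 genes were those called or, with none called, in each comparison, the 2 higher and 2 lower genes of smallest p. COL1A1, THY1, NES and ZIC1 were picked from the marker lists after their values were seen, and the other measured stromal and neuroectoderm genes were then added. Members and lists were chosen with earlier results of these data known. RefSeq (GRCh38.p14) gave positions and overlaps.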

Additional observations from a re-analysis of the deposited data

How the results depend on the processing

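No member and no gene of the RNA decay list was called under any alternative. Each member had at least 1279 counts per library, and the 2 libraries per genotype limit the precision more than that depth for CNOT1 and XRN1. The count of called genes over the table was 7 with DESeq2 in hemizygous against wild-type cells and 10 in each of the other comparisons. With a replicate block it was 1 in hemizygous against wild-type and 1 in homozygous against hemizygous cells, and the lowest adjusted p of a member in that fit was 0.412 (CNOT1, homozygous against wild-type). Genes at an unadjusted p under 0.05 in that fit numbered 616 (3.8%) in hemizygous against wild-type, 1942 (12%) in homozygous against wild-type and 1328 (8.2%) in homozygous against hemizygous cells, against 141, 435 and 124 without the block. Members among them were DCP2 in hemizygous against wild-type (edgeR adjusted p = 0.999), CNOT1 in homozygous against wild-type (edgeR adjusted p = 0.412), and CNOT1 and XRN1 in homozygous against hemizygous cells (edgeR adjusted p = 0.573 each). Gaps between replicates correlated across genes at 0.741 between hemizygous and wild-type, 0.357 between homozygous and wild-type and 0.476 between homozygous and hemizygous cells. The labels do not say what a number marks, so it was not taken as a pairing. With each library left out the count ran from 0 to 2 in hemizygous against wild-type, 0 to 1 in homozygous against wild-type and 0 to 3 in homozygous against hemizygous cells.

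Of 270 member values under the other alternatives 6 changed sign, all close to 0: DDX6 in hemizygous against wild-type cells at 0.000165 with RLE scaling, 0.000157 with DESeq2, 0.00538 with limma-voom and 0.00287 with the block, CNOT8 there at -0.00872 with library-size scaling, and PAN3 in homozygous against hemizygous cells at 0.00296 with upper-quartile scaling. Of the 270, those with either filter repeated the main fit and could not change, since neither filter removed a gene. Of 180 member values with a library left out, 33 changed sign. These 180 include fits that left out a library of the genotype not compared, which kept both compared genotypes whole.

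With a library left out, the log2 fold change in hemizygous against wild-type cells ran from -0.42 to 0.39 for CNOT1, -0.13 to 0.067 for CNOT6, -0.11 to 0.12 for CNOT8, -0.21 to 0.26 for DDX6, -0.086 to 0.14 for EDC4, -0.068 to 0.0031 for EIF4ENIF1 and -0.26 to 0.32 for XRN1. In homozygous against wild-type cells it ran from -0.15 to 0.28 for AGO2, -0.61 to 0.047 for CNOT1, -0.13 to 0.037 for CNOT8, -0.16 to 0.31 for DDX6, -0.15 to 0.012 for EDC4 and -0.014 to 0.057 for EIF4ENIF1. In homozygous against hemizygous cells it ran from -0.35 to 0.077 for AGO2, -0.65 to 0.18 for CNOT1, -0.17 to 0.044 for CNOT6, -0.16 to 0.078 for CNOT7, -0.16 to 0.077 for CNOT8, -0.10 to 0.23 for DDX6, -0.20 to 0.030 for EDC4, -0.13 to 1.55 for LSM14A, -0.095 to 0.044 for PAN3 and -0.55 to 0.043 for XRN1. CNOT7, PAN3 and DCP2 stayed above 0 against wild-type with each library left out, but their size moved. In homozygous cells it ran from 0.015 to 0.25 for CNOT7, 0.078 to 0.25 for PAN3 and 0.040 to 0.20 for DCP2. In hemizygous cells it ran from 0.11 to 0.26 for CNOT7, 0.10 to 0.27 for PAN3 and 0.13 to 0.30 for DCP2. For each of these genes both hemizygous libraries exceeded both of wild-type, so leaving a library out could hardly change the sign there. XRN1 in homozygous against wild-type cells ran from -0.43 to -0.0063 and CNOT6 from -0.19 to -0.012. In the RNA decay list, hemizygous against wild-type values ran from 0.16 to 0.63 for BTG2, 0.27 to 0.57 for NANOS1, -0.31 to -0.070 for ZFP36L1 and -0.35 to -0.090 for EXOSC4. Homozygous against wild-type values ran from 0.17 to 0.78 for GIGYF1, 0.15 to 0.27 for CNOT11, -0.48 to -0.23 for ZFP36L1 and -0.36 to -0.057 for TOB1. Homozygous against hemizygous values ran from -0.73 to -0.21 for BTG2, -0.36 to -0.23 for TOB1 and 0.10 to 0.40 for LSM14B. The log2 ratio of CNOT7 over CNOT8 ran from 0.098 to 0.24 in hemizygous against wild-type and from -0.064 to 0.081 in homozygous against hemizygous cells. The cause of these shifts was not tested.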
